A study of Mus musculus with 16 samples.

Results

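The cytosolic ribosomal protein genes of mouse dendritic cells were followed through treatment with the saturated fatty acid PA and the Toll-like receptor 7 agonist IMQ. The set holds 65 of the 22180 genes measured, namely those whose platform symbol begins with Rpl or Rps and a number, without the Rps6k kinases and without pseudogene symbols. Each gene was read from a probe set that names it alone, and from the brightest one where a gene had several. Of the 65 genes, 54 encode proteins of the ribosome itself, 32 in the large subunit and 22 in the small one. The other 11 carry a matching symbol but are paralogs or other genes: Rpl3l, Rpl6l, Rpl7l1, Rpl10l, Rpl22l1, Rpl32l, Rpl39l, Rps4l, Rps19bp1, Rps23rg1 and Rps27l. A further 14 symbols of the family lay on probe sets shared with other genes and were not analysed here, among them Rpl13a, Rpl10, Rpl23 and Rps2.

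The cells were differentiated from bone marrow with GM-CSF (20 ng/ml, 10 days), came from male C57/B6 mice of no stated age, and were then treated for 24 h. There were 4 groups of 4 arrays: mock, PA alone (0.5 mM, bound to bovine albumin, 6 molecules of PA to 1), IMQ alone, and IMQ with PA. PA is read as palmitic acid and IMQ as imiquimod from knowledge of the study. The labels give the IMQ dose as 3 uM in one place and 3 ug/ml in another, and do not say whether mock cells received albumin. The layout asks what each stimulus did alone and what their combination did. The labels call the replicates biological without naming animals or cultures, so a p-value here speaks only of variation among the arrays at hand. All values are log2 RMA values, with n = 4 in each group.

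The ribosome pairs a small subunit, which decodes mRNA, with a large subunit, which joins amino acids, and most of its proteins are present once in each particle. In mammals the mRNAs of nearly all of these proteins begin with a C and an unbroken run of pyrimidines, the terminal oligopyrimidine (TOP) motif. Through it the kinase complex mTORC1 and the RNA-binding protein Larp1 govern how strongly these mRNAs are translated and how long they are kept. Dendritic cells activated through Toll-like receptors are known to change their rate of protein synthesis over time. An array measures the RNA and not its translation.

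RefSeq start sites (build GRCm38.p6) were at hand for 51 of the 65 genes, all matched by gene number. They are shown because the motif is what marks these mRNAs as a class. A start whose first base is C and is followed by at least 4 pyrimidines was annotated for 10 of the 51 genes (19.6%), against 813 of all 27025 genes with a promoter (3.01%). Each window below runs 5′ to 3′ from 10 bases before the annotated start to 20 bases from it on, and the capitals mark the pyrimidine run that opens at the start. The last pair, Rps9 and Rps28, did not meet that definition and has no capitals. Rps28 opens with a C, but fewer than 4 pyrimidines follow it. Rps9 opens with a T, though a pyrimidine run crosses its annotated start.
Rpl14 (chr9:120571507-120571536, plus strand): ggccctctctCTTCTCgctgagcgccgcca
Rpl15 (chr14:18270967-18270996, minus strand): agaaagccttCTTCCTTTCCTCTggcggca
Rpl28 (chr7:4792955-4792984, plus strand): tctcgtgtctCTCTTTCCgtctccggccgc
Rpl35 (chr2:39005112-39005141, minus strand): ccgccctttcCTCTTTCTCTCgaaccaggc
Rps6 (chr4:86857348-86857377, minus strand): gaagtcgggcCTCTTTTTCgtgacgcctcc
Rps18 (chr17:33955646-33955675, minus strand): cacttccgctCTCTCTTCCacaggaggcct
Rps27 (chr3:90213629-90213658, minus strand): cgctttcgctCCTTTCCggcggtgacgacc
Rps9 (chr7:3704031-3704060, plus strand): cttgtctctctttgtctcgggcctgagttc
Rps28 (chr17:33824543-33824572, minus strand): cgcgtgcggtctcgcgagagcgaaagtgag
Of 60 annotated starts 43 lie at the outer edge of the gene, and a start annotated a few bases off would hide the run. A run of at least 8 pyrimidines that crosses the annotated start was found for 15 of the 51 genes (29.4%) and for 4.25% of all genes. The word CCGGAAG, the core bound by ETS factors, stood on either strand between 250 bases before and 50 bases after the start in 21 of the 51 genes (41.2%) and in 9.93% of all genes. The YY1 word AAGATGGC, which can overlap CCGGAAG by the letters AAG, stood in 3 of the 51 (5.88%) and in 3.19% of all. These matches describe the letters in the windows and say nothing of binding in these cells.

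Brightness on an array depends on the probes as well as on the RNA, so levels are not compared between genes. The mean of the 65 genes over all arrays ran from 1.91 to 12.5 with a median of 7.99, against a median of 5.34 over all genes. Of the 54 ribosome genes, 23 had a mean of at least 10, 8 lay between 8 and 10, 11 between 6 and 8, and 12 below 6. A gene was called dim in a group whose mean lay below 4.94, the 95th percentile of 1390 olfactory and vomeronasal receptor genes. Rpl3l, Rpl10l, Rpl22l1, Rpl32l and Rps15 were dim in every group, as were 39.1% of all genes. Many ribosomal protein genes have near-identical processed pseudogenes, and probes may read these copies, or the other way round. Which copy a probe set reads was not tested. Between arrays of a group, the pooled SD ran from 0.03 (Rpl29) to 0.40 (Rps15), with a median of 0.08, and Rpl5, Rps16 and Rpl32l were also noisy (0.25, 0.28 and 0.34); Rpl29, Rps15, Rps16 and Rpl32l are named after their values were seen.

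Of the cell identity markers, the dendritic genes Itgax (11.09 in mock) and H2-Ab1 (12.32) were bright, while Flt3 (5.72) and Zbtb46 (5.47) were only a little above the dim level. The macrophage genes Cd68 (12.55) and Csf1r (11.77) were bright too. Within a group, arrays correlated at 0.994 to 0.996 across genes. The interleukin gene Il6 set some arrays without IMQ apart: mock arrays 1, 2 and 3 read 7.57, 7.90 and 7.71 and PA arrays 3 and 4 read 7.43 and 8.22, while mock array 4 read 4.32 and PA arrays 1 and 2 read 4.12 and 3.998. Results are therefore also given without those 5 arrays, which leaves 1 mock and 2 PA arrays and assumes that the lone mock array varies like the other groups. The share of all genes called was not counted in that setting. A call lost there is therefore not set against all genes. In bulk RNA, fewer cells of a type and less RNA per cell cannot be told apart.

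Of the 65 genes, 25 fell and 3 rose with IMQ against mock, where 17.9% of all genes fell and 17.0% rose. With IMQ and PA together 37 fell and 7 rose against mock (18.1% and 18.4% of all genes). PA alone lowered 1 and raised 0 (0.442% and 1.05%). Compared with IMQ, 17 were lower and 3 higher with both agents (9.44% and 11.6%). With PA alone none of the 54 ribosome genes was called. The median of the 65 differences from the mock mean lay between -0.03 and 0.05 on the mock arrays and between 0.01 and 0.05 on the PA arrays. It lay between -0.12 and -0.10 on the 4 IMQ arrays and between -0.24 and -0.21 on the 4 arrays with both agents. In that median the arrays with IMQ, and those with both agents, lay apart from all others, and over all genes the same median stayed between -0.02 and 0.02 on every array.

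**Figure D1:**
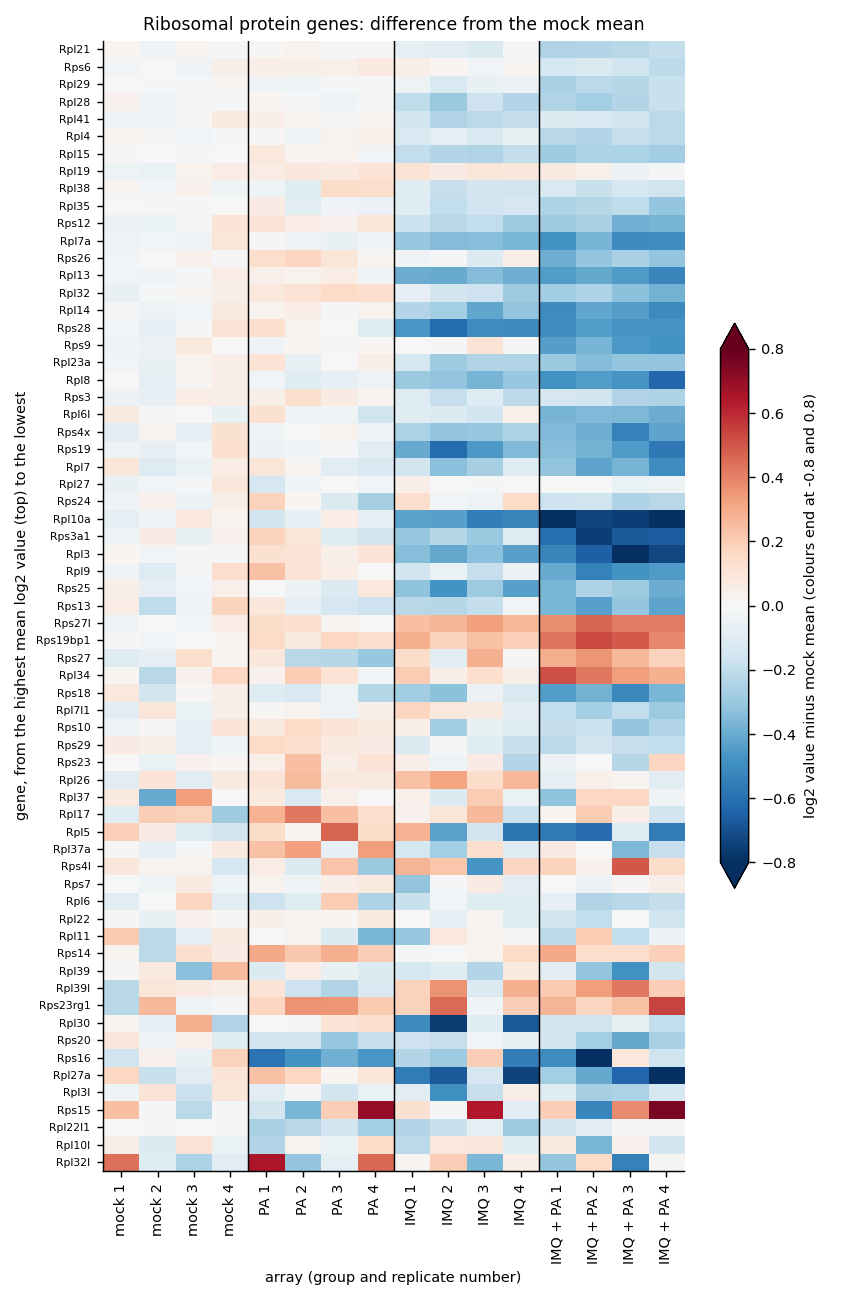
Log2 value minus the mock mean for the 65 genes (rows, brightest at the top) on each of the 16 arrays (columns), with blue for lower and red for higher. The upper rows turn blue on the IMQ arrays and darker blue on the IMQ with PA arrays, while the dimmer rows at the bottom vary from array to array.

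PA alone gave a single call among these genes. Calls were made with limma at an adjusted p (Benjamini-Hochberg, 22180 genes) under 0.05. By that measure 0 of the 65 rose and 1 fell, where 1.05% of all genes rose and 0.442% fell. The median change was 0.02, against 0.01 over all genes. The call was Rpl22l1, the paralog of Rpl22, which was dim in all groups and read 3.75, 3.74, 3.75 and 3.76 in mock and 3.49, 3.53, 3.59 and 3.48 with PA (-0.23 ± 0.05, limma adjusted p = 0.0369). That call was lost when mock array 1, 2, 3 or 4, PA array 1, 2 or 4 or IMQ array 2 was left out, with adjusted p of 0.0505 to 0.118. None of the 54 ribosome genes was called, and their changes ran from -0.48 (Rps16) to 0.27 (Rpl17), both named after their values were seen.

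With IMQ alone, 25 of the 65 genes fell and 3 rose, where 17.9% of all genes fell and 17.0% rose. The median change was -0.10, against 0.01 over all genes. Falls were of 0.14 to 0.53 on the log2 scale. All but 1 of the falls were among the 54 ribosome genes, with 16 of 32 in the large subunit and 8 of 22 in the small one. Without the arrays with raised Il6 the median change was -0.12, and fewer of the 65 were called each way. The falls lost there include those of Rps3 (-0.20), Rpl27a (-0.63), Rpl30 (-0.27) and Rps3a1 (-0.27), with adjusted p of 0.0694 to 0.408.

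Rps28, a small subunit protein at the exit of the mRNA channel, had the largest fall with IMQ among genes that stayed above the dim level and did not overlap. It read 10.70, 10.65, 10.71 and 10.84 in mock and 10.26, 10.11, 10.23 and 10.22 with IMQ, so all IMQ arrays lay below all mock arrays (-0.52 ± 0.06, limma adjusted p = 1.16e-06). Rpl10a, which forms the stalk where spent tRNA leaves the large subunit, went from 9.76, 9.80, 9.92 and 9.86 to 9.41, 9.40, 9.28 and 9.30 (-0.49 ± 0.06, adjusted p = 2.34e-06). This is 0.713 times the mock signal, with no overlap between the groups. Rps19, the protein of the small subunit head that is mutated in Diamond-Blackfan anaemia, went from 10.24 ± 0.09 (SD) to 9.78 ± 0.11 (-0.46 ± 0.07, adjusted p = 3.32e-05). A fainter probe set of the gene, at a mean of 5.31, changed by -0.24. Smaller falls were found for Rpl13 (-0.38 ± 0.04), Rps25, which some viral internal entry sites need (-0.38 ± 0.06), and Rpl3, which reaches to the peptidyl transferase centre (-0.38 ± 0.05), with adjusted p of 1.38e-06, 5.91e-05 and 3.21e-05. Rpl27a and Rpl30 changed by -0.53 and -0.51, but their values overlapped between the groups and the IMQ means (4.32 and 4.72) were dim, so the sizes cannot be read as such. Rps3, which lines the entry of the mRNA channel, fell by less (-0.15 ± 0.05, adjusted p = 0.0252). Its call was lost without mock array 3 or 4 or IMQ array 2 or 4 (-0.14 to -0.13, adjusted p of 0.0671 to 0.0777).

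The 3 genes that rose with IMQ were Rps27l, Rpl26 and Rps19bp1. Rps27l, a paralog of Rps27 that p53 induces, read 7.64, 7.69, 7.66 and 7.75 in mock and 7.92, 7.96, 8.01 and 7.95 with IMQ, without overlap (0.28 ± 0.05, limma adjusted p = 0.000176). Rpl26, which sits at the exit of the nascent chain tunnel and is modified by UFM1, rose by 0.24 ± 0.06 (adjusted p = 0.00624) and was the only ribosome gene to do so. Rps19bp1, which binds Rps19 and the deacetylase Sirt1 and is no part of the ribosome, rose by 0.22 ± 0.04 (adjusted p = 0.000713). All 3 calls were lost without the arrays with raised Il6, at 0.22, 0.17 and 0.21 with adjusted p of 0.0554, 0.26 and 0.106.

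With IMQ and PA together, 37 of the 65 genes fell against mock and 7 rose, where 18.1% of all genes fell and 18.4% rose. The median change was -0.22, against -0.01 over all genes. The falls took in 20 of the 32 large subunit genes and 15 of the 22 small subunit genes. Without the arrays with raised Il6 the median change was -0.24, and fewer of the 65 were called each way. The falls lost there include those of Rpl27a (-0.63), Rpl5 (-0.31), Rpl7l1 (-0.29), Rps3 (-0.24) and Rps6 (-0.20), with adjusted p of 0.0561 to 0.518. Against PA alone, the other comparison of cells with both agents to cells without IMQ, 38 fell and 6 rose (18.5% and 16.8% of all genes), with a median of -0.23 against 0.00. The median of that comparison was -0.24 without the arrays with raised Il6, with slightly fewer calls each way.

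Rpl10a fell furthest from mock, to 9.01, 9.10, 9.08 and 8.998 with both agents, below every array of the other 3 groups. The change was -0.79 ± 0.06 (limma adjusted p = 7.08e-09), or 0.58 times the mock signal. Rpl3 read 9.41, 9.37, 9.40 and 9.38 in mock and 8.87, 8.74, 8.58 and 8.66 with both, with 9.05, 8.98, 9.06 and 8.96 for IMQ alone in between (-0.68 ± 0.05 from mock, adjusted p = 3.44e-08). Its second probe set, at a mean of 7.88, changed by -0.41 and another, which was dim, by -0.05. Rps3a1, a protein of the small subunit platform, read 9.54, 9.65, 9.53 and 9.62 in mock and 8.98, 8.83, 8.92 and 8.92 with both, again without overlap (-0.67 ± 0.07, adjusted p = 1.06e-06). Its second probe set, close to the dim level at a mean of 4.97, changed by 0.05, so the fall rests on 1 probe set. Rpl8, which lies beside the peptidyl transferase centre, and Rps28 changed by -0.51 ± 0.05 and -0.47 ± 0.06, with adjusted p of 2.71e-07 and 3.25e-06. Rpl27a changed by -0.53 ± 0.13 between group means that were both dim (4.84 and 4.31). The other 31 falls were of 0.15 to 0.47, with Rpl9 (-0.47) and Rpl13 (-0.46) among the larger.

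**Figure D2:**
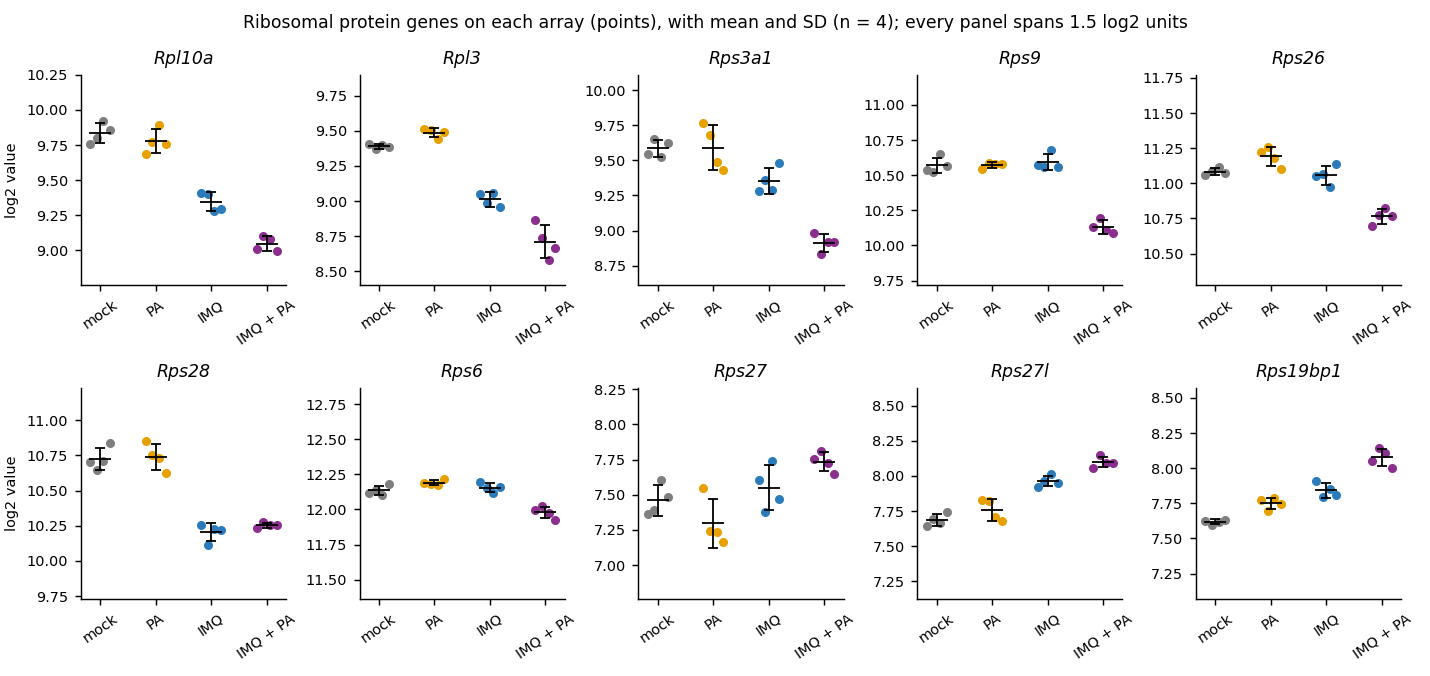
Log2 values of 10 genes on each array (points) with the group mean and SD (bars, n = 4), in panels that all span 1.5 log2 units. Rpl10a, Rpl3 and Rps3a1 step down from mock over IMQ to IMQ with PA, Rps9 and Rps26 are low only on the IMQ with PA arrays, Rps28 is low in both IMQ groups, and Rps27l and Rps19bp1 step up.

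Of the 7 genes that rose above mock with both agents, 3 are ribosome genes. Rpl34, a large subunit protein, read 7.31, 7.08, 7.33 and 7.47 in mock and 7.81, 7.72, 7.63 and 7.58 with both (0.39 ± 0.08, limma adjusted p = 0.000879). Rps27, a zinc finger protein of the small subunit, rose by 0.27 ± 0.09 (adjusted p = 0.027), a call lost without mock array 1 or 2 or IMQ with PA array 1 or 2 (0.24 to 0.27, adjusted p of 0.0564 to 0.0794). Rps14, which is lost from 1 chromosome in a human marrow disorder, rose by 0.19 ± 0.07 (adjusted p = 0.0413). Leaving out mock array 1 or 2, PA array 2 or 3, or IMQ with PA array 1 or 4 ended that call too (0.12 to 0.20, adjusted p of 0.05 to 0.14).

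The other 4 that rose are paralogs or no ribosomal proteins. Rps19bp1 went from 7.63, 7.60, 7.62 and 7.63 to 8.05, 8.15, 8.11 and 8.004 (0.46 ± 0.04, adjusted p = 3.37e-07) and Rps27l from 7.69 ± 0.04 (SD) to 8.10 ± 0.04 (0.41 ± 0.05, adjusted p = 2.18e-06). Both were higher on every array with both agents than on any other array. Rpl39l, the testis-enriched paralog of Rpl39, rose by 0.29 ± 0.11 (adjusted p = 0.0409), which was lost without mock array 1 or 4, PA array 4, IMQ array 1 or IMQ with PA array 2 or 3 (0.22 to 0.31, adjusted p of 0.0503 to 0.14). Rps23rg1 changed by 0.30 ± 0.11 (adjusted p = 0.0451) with overlapping values and a mock mean that was dim (4.90); it is named after its values were seen. That call was lost without mock array 1, 3 or 4, any PA array, IMQ array 1 or 4, or IMQ with PA array 1, 3 or 4 (0.22 to 0.33, adjusted p of 0.0508 to 0.149). Rpl22 itself was not called with both agents against mock (-0.13 ± 0.05, adjusted p = 0.0571), but was without dim genes (adjusted p = 0.025), with a replicate block (0.049) and without mock array 2 or IMQ with PA array 3 (0.0448 and 0.0105). Against PA it was called lower (-0.17 ± 0.05, adjusted p = 0.0132). Without the arrays with raised Il6, the calls against mock of Rpl34 (0.22), Rpl39l (0.24), Rps27 (0.25), Rps14 (0.13) and Rps23rg1 (0.32) were lost, with adjusted p of 0.195 to 0.418. Among the remaining paralogs, Rpl7l1 (-0.24 ± 0.06) and Rpl6l (-0.37 ± 0.06) fell. Rps4l, a paralog of Rps4x, was called in no comparison (0.21 ± 0.15 here), nor were Rpl3l, the muscle paralog of Rpl3, the testis retrogene Rpl10l, or Rpl32l, all at dim values.

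Against PA alone, the cells with both agents had the largest falls in Rpl3 (-0.78 ± 0.05), Rpl10a (-0.73 ± 0.06), Rps3a1 (-0.68 ± 0.07), Rpl5 (-0.65 ± 0.16) and Rpl9 (-0.57 ± 0.06), with limma adjusted p of 6.87e-09, 1.82e-08, 1e-06, 0.00483 and 1.64e-06. Rpl27a changed by -0.66 ± 0.13 to a dim mean. Rps27 (0.44 ± 0.09), Rpl39l (0.40 ± 0.11), Rps27l (0.34 ± 0.05), Rps19bp1 (0.33 ± 0.04) and Rpl34 (0.31 ± 0.08) rose, and Rpl22l1 changed by 0.17 ± 0.05 at dim values. Rps27 read 7.55, 7.24, 7.24 and 7.16 with PA and 7.75, 7.81, 7.73 and 7.65 with both, without overlap. Without the arrays with raised Il6, the calls against PA of Rpl5 (-0.54), Rpl39l (0.32), Rpl22l1 (0.18) and Rpl22 (-0.16) were lost, with adjusted p of 0.0979 to 0.122. The Rpl22l1 call was also lost without PA array 4 or IMQ with PA array 3 or 4 (0.14 to 0.15, adjusted p of 0.0509 to 0.0573). A variance trend with robust moderation ended it too (limma adjusted p = 0.221).

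Calls were unevenly spread over brightness. Among the 23 ribosome genes with a mean of at least 10, 16 fell and 0 rose with IMQ, and 22 fell and 0 rose with both agents against mock. Bright genes are called more often in general: of the 661 genes in the data with such a mean, 41.8% fell with IMQ and 44.8% with both agents, and 36.2% and 36.9% rose. The 23 ribosome genes had 0 calls with PA alone (1.36% of the 661 fell and 3.48% rose). When PA was added to IMQ, 8 of the 23 fell and 0 rose (32.8% and 23.1% of the 661). With both agents against PA, 22 fell and 0 rose (46.4% and 33.6%), and in the interaction 4 lay below 0 and 0 above (26.6% and 15.1%). Among the 12 ribosome genes with a mean below 6, 2 fell and 0 rose with IMQ, and 2 fell and 1 rose with both agents. Of all 13101 genes with such a mean, 7.01% fell and 7.70% rose with IMQ, and 8.40% fell and 6.82% rose with both. The medians in the brightest class were -0.20 and -0.31, and in the class from 8 to 10 they were -0.22 and -0.44. From 6 to 8 they were -0.04 and -0.03, and below 6 they were -0.10 and -0.13. Of the 11 ribosome genes from 6 to 8, 1 fell and 1 rose with IMQ, and 5 fell and 2 rose with both agents. Over all genes 17.9% and 18.1% fell in these comparisons, and 17.0% and 18.4% rose. These brightness classes were set after the values were seen. Separate bright probe sets of 1 gene gave like values with both agents for 3 genes: -0.22 to -0.14 over 4 sets for Rpl41, -0.46 and -0.45 for Rpl7a, and -0.33 to -0.32 for Rps12 (named after their values were seen). Several of the Rps12 sets hold identical values and are not separate readings. Fainter sets of the other genes did not follow: that of Rpl41, at a mean of 6.12, changed by 0.10 and that of Rpl7a, at 6.49, by -0.07.

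**Figure D3:**
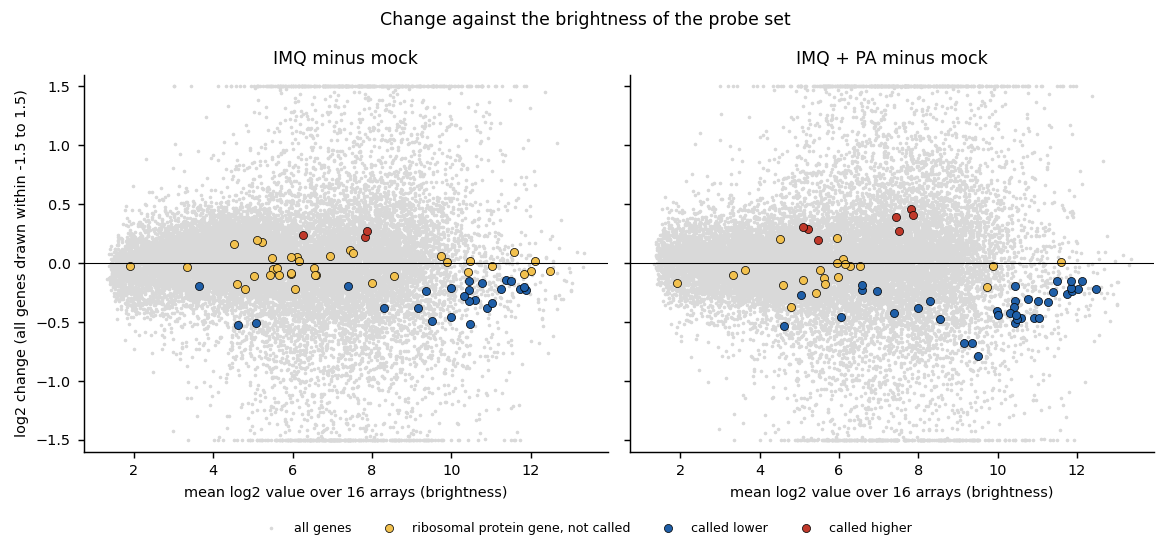
Log2 change against the mean log2 value over the 16 arrays, for IMQ minus mock (left) and IMQ with PA minus mock (right), with all genes in grey and the 65 genes in colour by their call. The bright ribosomal protein genes form a narrow band just below 0 with IMQ and a lower band with both agents, and the genes called higher lie between means of 5 and 8.

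Rpl19 (mean 11.59) and Rpl27 (mean 9.88, just under the brightest class) did not fall, and are named after their values were seen. Rpl19 read 11.51, 11.49, 11.58 and 11.61 in mock and 11.61, 11.59, 11.498 and 11.53 with both agents (0.01 ± 0.04, 95% interval -0.08 to 0.10). Rpl27 changed by -0.02 ± 0.05 (95% interval -0.12 to 0.07). Both intervals leave out the group median of -0.22, but the genes were picked for the lack of a fall, so this is no test of an exception. Neither gene was called in any of the 6 comparisons. Rpl11, which with Rpl5 and the 5S RNA can bind the p53 ligase Mdm2, was called in none either (-0.06 ± 0.12 with both agents, from a mock mean of 5.57). Rpl5 changed by -0.46 ± 0.16 from mock (limma adjusted p = 0.04) with overlapping values, and the call was lost without mock array 1 or 2 or IMQ with PA array 1, 2 or 4 (-0.44 to -0.39, adjusted p of 0.0846 to 0.111).

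Adding PA to IMQ lowered 17 of the 65 genes and raised 3, where 9.44% of all genes fell and 11.6% rose. The median change was -0.09, against -0.02 over all genes. Of the 23 ribosome genes with a mean of at least 10, 8 fell, near the 32.8% of all 661 genes that bright. With every array set to the same median the count of falls among the 65 dropped to 10. Without the arrays with raised Il6 their median change was again -0.09, with slightly fewer falls called. Of the 17, 15 are ribosome genes, 9 of the large subunit and 6 of the small one. The other pair is Rpl7l1, a homologue of Rpl7 that acts in subunit assembly (-0.30 ± 0.06), and Rpl6l (-0.29 ± 0.06).

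Rps9, which lies at the entry of the mRNA channel, fell most. It read 10.57, 10.56, 10.68 and 10.56 with IMQ, which is where mock stood (10.54, 10.52, 10.65 and 10.57), and 10.13, 10.20, 10.11 and 10.09 once PA was added. The IMQ with PA arrays lay below all others (-0.46 ± 0.04, limma adjusted p = 1.34e-06), and a second probe set at a mean of 7.77 changed by -0.62. Rps3a1 and Rpl9, near the sarcin-ricin loop, changed by -0.44 ± 0.07 and -0.36 ± 0.06 from IMQ, with adjusted p of 0.000276 and 0.00048. Rpl3 and Rpl10a changed by a further -0.30 ± 0.05 and -0.30 ± 0.06 (adjusted p of 0.000691 and 0.000876). Averaging all probe sets of a gene brought Rps3a1 to -0.02 (adjusted p = 0.925) and Rpl3 to -0.11 (adjusted p = 0.307), neither of them called.

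Rps28 and Rps19, which were among the largest falls with IMQ, were not called when PA was added (0.05 ± 0.06 and 0.02 ± 0.07). Rps28 read 10.26, 10.11, 10.23 and 10.22 with IMQ and 10.23, 10.28, 10.26 and 10.25 with both. Upward, Rps19bp1 (0.23 ± 0.04) and Rpl34 (0.28 ± 0.08) rose with adjusted p of 0.00101 and 0.0183. The Rpl34 call was lost without IMQ array 2 or 4 or IMQ with PA array 1 (0.24 to 0.26, adjusted p of 0.054 to 0.0619). Rpl30 changed by 0.37 ± 0.12 with overlap from a dim IMQ mean, a call lost without mock array 1 or 2, any PA array, IMQ array 1, 2 or 4, or any IMQ with PA array (0.28 to 0.38, adjusted p of 0.0571 to 0.155).

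Whether PA acted differently with and without IMQ was tested as an interaction: the effect of PA in IMQ-treated cells, less its effect in cells without IMQ. It was called below 0 for 10 of the 65 genes and above 0 for 1, where 7.01% of all genes were called below and 6.58% above. The median was -0.11, against -0.01 over all genes, and 46 of the 65 values lay below 0, as did 11686 of 22180 over all genes. Of the 23 ribosome genes with a mean of at least 10, 4 were called below 0, against 26.6% of all 661 genes that bright. Without the arrays with raised Il6 the median of the 65 was -0.08, and most of the calls were lost. The calls lost there included those of Rpl3 (-0.43), Rpl9 (-0.39), Rpl26 (-0.38) and Rps6 (-0.18), with adjusted p of 0.0869 to 0.351.

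Rpl9 had a value of -0.46 ± 0.09 (95% interval -0.66 to -0.27, limma adjusted p = 0.00205) and Rps9 one of -0.46 ± 0.06 (95% interval -0.60 to -0.33, adjusted p = 0.000103). For Rps9 the PA change was 0.00 without IMQ and -0.46 with it. Rps26, a protein at the exit of the mRNA channel, read 11.23, 11.26, 11.18 and 11.10 with PA, 11.06, 11.07, 10.97 and 11.14 with IMQ and 10.69, 10.77, 10.82 and 10.77 with both. Only the arrays with both agents were low, and the interaction was -0.40 ± 0.07 (adjusted p = 0.000788). Its second probe set was dim (mean 3.24) and changed the other way, by 0.21. Rps3a1 (-0.45 ± 0.10), Rpl3 (-0.40 ± 0.08) and Rpl26 (-0.39 ± 0.09) followed, and averaging all probe sets turned the Rps3a1 value to 0.06 (adjusted p = 0.812) and brought Rpl3 to -0.10 (adjusted p = 0.605). The Rps26 value became -0.10 (adjusted p = 0.775) on that average.

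Rps6, the small subunit protein that S6 kinases phosphorylate downstream of mTORC1, was not called with either agent alone. It read 12.11, 12.14, 12.11 and 12.18 in mock, 12.19, 12.18, 12.18 and 12.22 with PA, 12.19, 12.15, 12.11 and 12.16 with IMQ and 11.996, 12.02, 11.98 and 11.93 with both. The arrays with both agents lay below all others, and the interaction was -0.23 ± 0.06 (limma adjusted p = 0.0111). Rpl26 rose with IMQ and read 6.42 there but 6.16 with both, near its mock mean of 6.18. The 1 value above 0 was that of Rpl22l1 (0.36 ± 0.07, adjusted p = 0.00275), at dim values throughout. That call was lost with a variance trend and robust moderation (limma adjusted p = 0.0847).

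The IMQ response without PA (IMQ minus mock) and with it (IMQ with PA minus PA) share no array, so they can be set side by side. Across the 65 genes the 2 changes had a Pearson r of 0.69 and a Spearman rho of 0.67, a description over genes that share the same arrays within each change. In 44 genes both changes lay below 0. In 46 the change was lower with PA, which restates the 46 interaction values below 0. The PA change without and with IMQ, which share no array either, had an r of 0.08.

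**Figure D4:**
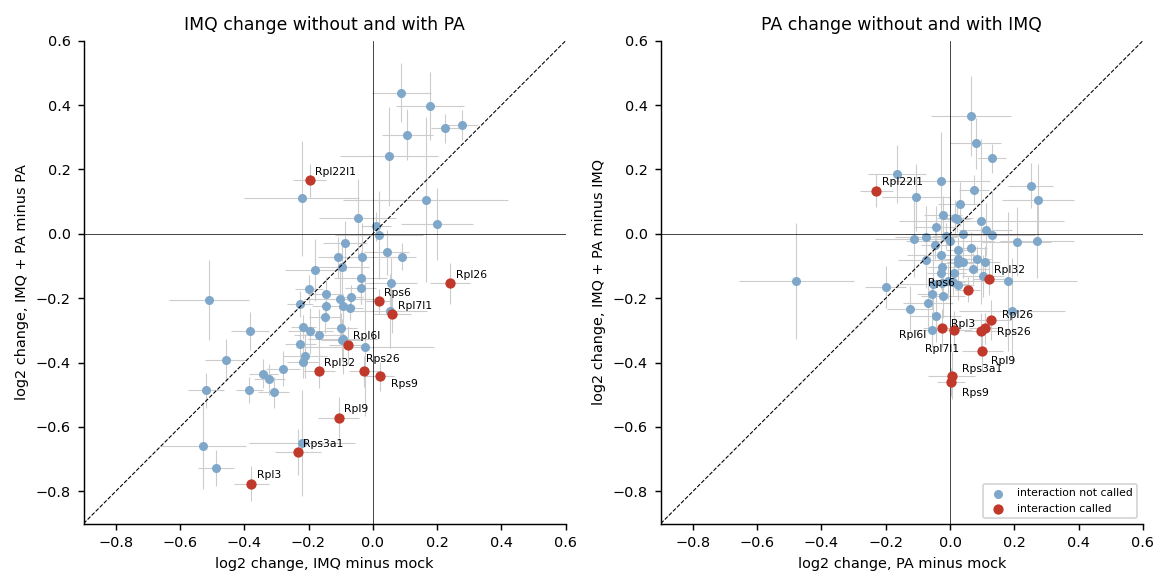
Log2 change of each of the 65 genes with IMQ, without PA (horizontal) and with PA (vertical), at left, and with PA, without and with IMQ, at right; grey bars are standard errors and the dashed line marks equal changes. In 46 of the 65 genes the point lies below the line, in both panels alike because the distance from the line is the interaction in each. The 11 genes with a called interaction are in red and named.

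The lists of genes around the ribosome were split by hand, and the initiation factors Eif4b, Eif3e, Eif3f and Eif3h were counted among the TOP genes. Of 15 measured TOP genes outside the family, elongation factors among them, 10 fell and 0 rose with IMQ and 13 fell and 0 rose with both agents against mock, with medians of -0.17 and -0.37 (17.9% and 18.1% of all genes fell in these comparisons and 17.0% and 18.4% rose). Eif4b, which helps the helicase of the cap complex, changed by -0.56 ± 0.04 with IMQ and -0.73 ± 0.04 with both (limma adjusted p = 3.92e-09 and 1.32e-10). With both agents Npm1, a nucleolar chaperone, and the elongation factor gene Eef1d changed by -0.55 ± 0.06 and -0.54 ± 0.06. Eif3f changed by -0.24 ± 0.05 and -0.37 ± 0.05 and Eif3e, not called with IMQ (0.07 ± 0.05), by -0.50 ± 0.05 when PA was added. Of the 14 other initiation factors measured, 8 rose and 0 fell with IMQ, and the counts were the same with both agents. With both agents against PA, 7 rose and 1 fell. Eif4e, which binds the mRNA cap, rose from 8.42 in mock to 9.32 with IMQ and 9.65 with both (changes of 0.91 ± 0.05 and 1.23 ± 0.05, adjusted p of 4.94e-10 and 1.09e-11). Eif6, which keeps the subunits apart, rose by 0.87 ± 0.05 and 0.86 ± 0.05.

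Ribosomal proteins whose symbols the rule leaves out were measured for 5 genes: Rpsa (-0.27 ± 0.04) and Rplp1 (-0.25 ± 0.05) fell with IMQ and also with both agents, and Fau, Rplp0 and Rplp2 were not called. Of 32 biogenesis genes, 10 fell (31.2%) and 6 rose (18.8%) with IMQ and 13 fell (40.6%) and 7 rose (21.9%) with both. Nop10, of the RNA-modifying H/ACA particles, and Dkc1, the enzyme of the same particles, changed by -0.83 ± 0.05 and -0.57 ± 0.08 with IMQ, while Gtpbp4, a nucleolar GTPase, rose by 0.62 ± 0.04. The 71 mitochondrial ribosomal protein genes (Mrpl and Mrps) went both ways, with 17 lower (23.9%) and 16 higher (22.5%) with IMQ and 15 lower (21.1%) and 24 higher (33.8%) with both, and medians of 0.03 and 0.04. Along the mTORC1 axis 5 of 15 genes rose and 5 fell with IMQ, and 5 rose and 4 fell with both agents against mock. For all these lists, the shares over all genes were 17.9% lower and 17.0% higher with IMQ. With both agents against mock they were 18.1% and 18.4%. Of the inhibitors of mTORC1, Ddit4 and Sesn2 rose with IMQ by 2.69 ± 0.10 and 1.40 ± 0.06, while Deptor changed by -1.67 ± 0.10 with IMQ and -1.79 ± 0.10 with both. Mtor, the kinase itself, rose by 0.19 ± 0.05 and 0.35 ± 0.05, and Myc, which drives ribosomal protein genes in many cells, changed by -1.83 ± 0.06 with IMQ. Adding PA to IMQ raised Ddit4 by 0.80 ± 0.10 and Myc by 0.91 ± 0.06 and changed Sesn2 by -0.49 ± 0.06.

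**Figure D5:**
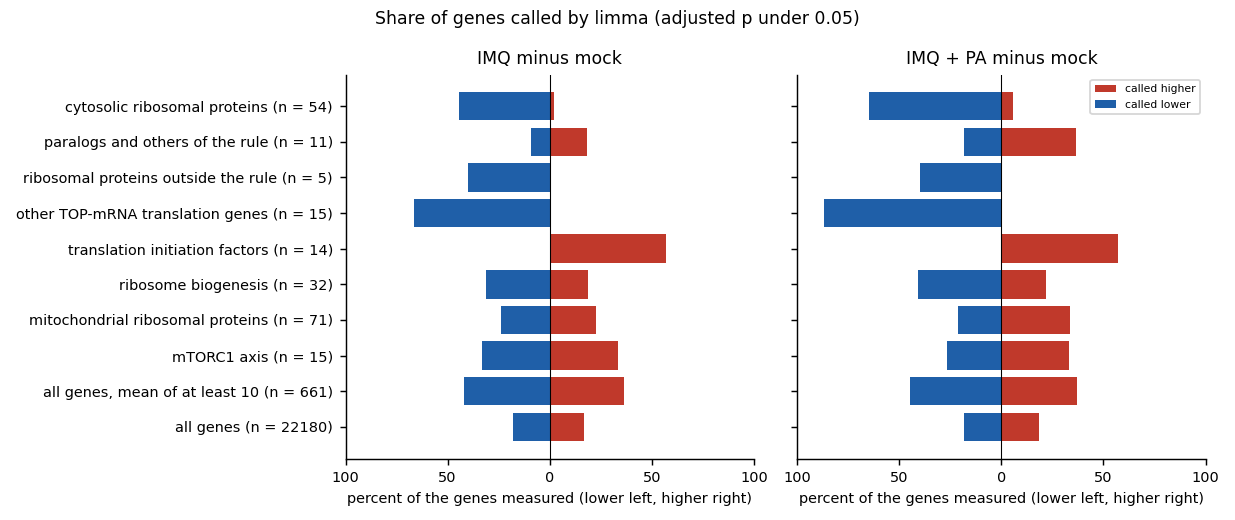
Percent of the measured genes in each list that limma called lower (left of 0) or higher (right of 0) for IMQ minus mock and IMQ with PA minus mock, with all genes and all bright genes at the bottom. Of the 54 cytosolic ribosomal proteins 24 and 35 were lower and 1 and 3 higher in the panels from left to right, the other TOP genes reach only to the left, the 14 initiation factors outside that list only to the right, and mitochondrial ribosomal proteins reach to both sides.

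The calls can be set beside the annotated starts shown above. With IMQ, 6 of the 9 ribosome genes with an annotated TOP start fell and 0 rose (median -0.15), and of the 33 with an annotated start but no such run 12 fell and 1 rose (median -0.10). Those 33 include Rpl7a, Rpl27a, Rpl34, Rps9 and Rps24, in which a run of at least 8 pyrimidines crosses the annotated start. The 2 groups are therefore not cleanly split by the motif. With both agents against mock, 8 of the 9 fell and 1 rose (median -0.23), and 18 of the 33 fell and 1 rose (median -0.26). With PA added to IMQ the falls were 3 of 9 and 8 of 33, and with both agents against PA 8 of 9 and 20 of 33. Over all genes 17.9%, 18.1%, 9.44% and 18.5% fell in these comparisons. Of the 661 genes with a mean of at least 10, 41.8%, 44.8%, 32.8% and 46.4% fell. Among the 9, Rpl14, Rpl15, Rpl28, Rpl35, Rpl38 and Rps6 have such a mean, as do some of the 33. The shares of the 2 groups were not matched for brightness. The gene with a TOP start that rose was Rps27. The 2 groups of genes were not tested against each other.

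Cell type markers moved in both directions in the same comparisons. Over all genes 17.9% fell and 17.0% rose with IMQ, and 18.1% fell and 18.4% rose with both agents against mock. Of 7 dendritic markers 3 rose and 4 fell both with IMQ and with both agents against mock, and the median of the list ran from 7.94 to 8.27 on the mock arrays, 7.84 to 8.01 with PA, 8.24 to 8.36 with IMQ and 9.21 to 9.31 with both. A list median follows whichever gene lies in the middle, so it is no measure of the typical change. The median of the 7 changes from mock was -0.30 with IMQ and -0.25 with both. Of 7 macrophage markers 3 rose and 4 fell with IMQ and 2 rose and 4 fell with both, and the list median ran from 10.07 to 10.18 in mock, 10.11 to 10.16 with PA, 10.87 to 11.003 with IMQ and 9.95 to 10.12 with both. The median of these 7 changes from mock was -0.18 with IMQ and -0.44 with both. The list medians of neutrophil (4.35 to 5.03), mast cell and basophil (3.67 to 4.14), lymphocyte (4.16 to 4.53) and erythroid markers (4.67 to 5.01) stayed near or below the dim level on all arrays. Single genes of these lists did change: with IMQ and with both agents S100a8 rose by 1.52 ± 0.08 and 1.78 ± 0.08 (from 6.40 in mock), while S100a9 changed by -0.71 ± 0.11 and -0.93 ± 0.11 to dim means. Of the 8 neutrophil markers 2 rose and 1 fell with IMQ and 1 rose and 2 fell with both. Of 2 erythroid markers 1 (Epor, 0.21 ± 0.07) rose with IMQ, and 1 of 6 mast cell markers (Prss34) was called higher in both at dim values. These genes are named after their values were seen. The part of a shift in cell types in the ribosomal protein values was not tested.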

How the data were processed

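RNA (200 ng per sample) was labelled and hybridised to 16 Affymetrix arrays, per the labels' protocols. The authors deposited log2 values of 41345 probe sets, made with RMA and affy per the submitters' processing notes; versions and genome build are not given in the sources used here. Of the probe sets, 23521 carried 1 symbol and were used. A model with 4 group means over all 16 arrays was fitted to 22180 genes with limma 3.58.1 (R 4.3.3, moderated variances, two-sided, 12 residual degrees of freedom). Calls needed an adjusted p (Benjamini-Hochberg) under 0.05, with no size threshold; ± after a change is its standard error. Arrays have no read depth, and precision is limited by how many there are. On simulated data for IMQ with PA minus mock in 22180 genes, 50 genes were changed at each size. There 20%, 68%, 100% and 100% of changes of 0.25, 0.5, 1 and 2 were recovered and 7.10% of calls were false. Far more genes were called in the data, where 4085 rose and 4012 fell. The cutoff on p was therefore less strict in the data, and the simulated shares do not carry over to it.

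Members and lists were chosen with earlier results of these data known. Genes were named by rule: in each comparison up to 6 called members each way without overlap, a preset list of members, and up to 3 called genes of each other list with 1 in the other direction. Gene names were checked by gene number against RefSeq (GRCm38.p6). No clear pairing of the arrays by replicate number was seen, and none was modelled in the main fit. Alternatives are given in the closing section.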

Additional observations from a re-analysis of the deposited data

Results flagged for a closer look

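In 6 of 120 groups of 4 arrays looked at, 1 array stood far from the other 3, where chance gives about 1 in 20. These were Rpl13 on IMQ array 3 (10.77), Rpl26 on PA array 2 (6.44), Rpl39l on mock array 1 (4.90), Rpl5 on IMQ with PA array 3 (6.07), Rps4l on IMQ array 3 (5.43) and Rps9 on IMQ array 3 (10.68).

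The PA change differed with and without IMQ for 11 genes by the test of the difference itself (limma, adjusted p under 0.05 over all genes). The differences were 0.36 for Rpl22l1, -0.39 for Rpl26, -0.40 for Rpl3, -0.26 for Rpl32, -0.27 for Rpl6l, -0.31 for Rpl7l1, -0.46 for Rpl9, -0.40 for Rps26, -0.45 for Rps3a1, -0.23 for Rps6 and -0.46 for Rps9. Rpl32 and Rpl6l are named because they belong to this count. The Rpl32 call was lost without mock array 1 (-0.24, adjusted p = 0.0519). The Rpl6l call was lost without mock array 2, 3 or 4, PA array 1, 2 or 3, IMQ array 1, 2 or 4, or any IMQ with PA array (-0.28 to -0.22, adjusted p of 0.0616 to 0.0899).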

How the results depend on the processing

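Changing 1 choice at a time gave 24 alternatives, 16 of which left out 1 array. No alternative turned the direction of the median change with IMQ, with both agents or of PA added to IMQ. The count of members lowered by PA alone, 1, became 0 with repeated quantile normalization, equal array medians, a variance trend with robust moderation, dim genes left out or the arrays with raised Il6 left out, and 1 member was then higher with dim genes left out. Members lowered by PA added to IMQ went from 17 to 10 with equal array medians. The interaction count below 0, 10, was 17 with the variance trend and 16 without dim genes, and the count above 0, 1, was 0 without dim genes. Most interaction calls were lost without the arrays with raised Il6. Without the arrays with raised Il6, 15 members were lower and 0 higher with IMQ, and 24 lower and 2 higher with both agents against mock. Averaging a gene's probe sets turned the Rps3a1 interaction to 0.058. Leaving out 1 array gave 0 to 0 higher and 0 to 1 lower for PA, 3 to 4 and 20 to 25 for IMQ, 3 to 7 and 35 to 38 for both agents against mock, 1 to 5 and 14 to 19 against IMQ, 5 to 6 and 37 to 38 against PA, and 1 to 3 and 9 to 12 for the interaction. The 7 genes higher with both agents became 3 without mock array 1 and 4 without IMQ with PA array 1. The 3 higher than with IMQ became 1 without IMQ array 2 or 4 or IMQ with PA array 1, and 5 without IMQ array 3. The 1 interaction above 0 became 2 without PA array 1 and 3 without IMQ array 3. The causes were not tested. Replicate numbers correlated at -0.118 to 0.173 over 24 pairs, and 5 of 16 arrays lay closest to their own number. No clear pairing by number was seen, but weak correlation cannot exclude it. With a replicate block the counts lower were 1, 24, 39, 17, 40 and 9 in the order above. The counts higher were then 0, 3, 6, 3, 6 and 1. Small changes can be missed with 4 arrays in a group. The simulated recovery of 20% at a change of 0.25 had few changed genes and does not carry over to these members. A change in a dim gene has only a bound.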
